A study of Saccharomyces cerevisiae with 12 samples.

Results

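The transcripts described here are those of 8 Saccharomyces cerevisiae genes for the uptake of zinc and copper. The zinc genes are ZAP1 (YJL056C), ZRT1 (YGL255W), ZRT2 (YLR130C) and ZRT3 (YKL175W), and the copper genes are MAC1 (YMR021C), CTR1 (YPR124W), CTR2 (YHR175W) and CTR3 (YLR411W). They were chosen by gene symbol, as 8 of the 5449 genes named on the arrays, and each had 1 probe set. Both strains compared are prototrophic laboratory strains, CEN.PK 113-7D, of mating type a, and YSBN2, an FY strain whose genotype is given as ho::Ble/ho::HphMX4. Each strain was grown aerobically at 30 °C and pH 5.0 in 4 L bioreactors, in batch culture from 30 g/L glucose or in a glucose-limited chemostat. The chemostat, diluted at 0.1 per hour, received 7.5 g/L glucose and 0.3 g/L ethanol. Each of the 4 groups held 3 biological replicates, giving 12 arrays. The labels do not give the zinc or copper content of the medium, a metal treatment, culture ages or cell densities.

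Budding yeast takes up zinc through Zrt1, the high-affinity transporter of the plasma membrane, and Zrt2, a transporter of lower affinity, while Zrt3 releases zinc from the vacuole. Zap1 is the transcription activator that switches ZRT1, ZRT3 and its own gene on when zinc is scarce, and it also regulates ZRT2. Copper enters through the high-affinity transporters Ctr1 and Ctr3 after reduction at the cell surface, Ctr2 releases copper from the vacuole, and Mac1 is the activator that responds to copper shortage and drives CTR1, CTR3 and the reductase gene FRE1. Many laboratory strains of the S288C lineage carry a Ty2 retrotransposon in the CTR3 promoter that keeps the gene low. The labels do not say which allele either strain carries, and it was not examined here.

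Signals are read as log2 values, so that a difference of 1 is a 2-fold change, and they ran from about 2, where undetected probe sets gather, to 16.2. All 8 genes lay well above that floor in every array, with means over the 12 arrays between 10.03 and 13.34, and none was filtered. Levels are compared between groups for 1 gene at a time, because probe sets differ in brightness. As a check of the strain labels, HO, the gene disrupted in YSBN2, read 11.46 to 12.62 in the 6 CEN.PK 113-7D arrays and 2.11 to 2.39 in the 6 YSBN2 arrays, although the position of its probe set relative to the disruption was not settled. The cause of the low HO signal in YSBN2 was not tested. Array medians ran from 11.02 to 11.37 and were higher in the chemostat. The third YSBN2 batch array differed most from its replicates: 196 of its probe sets deviated by 2 or more on the log2 scale from their mean, against 2 to 77 probe sets in the other 11 arrays. Values without it are given where it changed a call or moved a called value by over 1.5 times among the genes described in the comparison of cultures. In comparisons of strains, transcript amount and the match of a strain's sequence to the probes cannot be told apart. Any difference in ploidy or mating type between the strains cannot be told apart from their other differences either.

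In CEN.PK 113-7D, the copper transporter genes CTR3 and CTR1 were higher in the chemostat than in batch, and the zinc uptake genes ZRT1 and ZRT2 were lower. The same 4 genes were called in the same directions in YSBN2, where CTR2 and ZAP1 were lower as well. Between strains, CTR3 stood lower in YSBN2 in both cultures by 2.59 and 4.17 log2 units, whereas the other 7 genes differed by at most 0.70. The 8 genes were tested together with all 5716 probe sets in 1 limma fit of the 12 arrays, and a gene was called at an adjusted p (Benjamini-Hochberg over all probe sets) under 0.05. The groups share 1 estimate of the spread for each gene, so the third YSBN2 batch array also changes errors in comparisons that do not hold it. For ZRT1 in CEN.PK 113-7D the difference was -1.05 with an error of 0.27, or 0.13 when that array was left out.

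**Figure D1:**
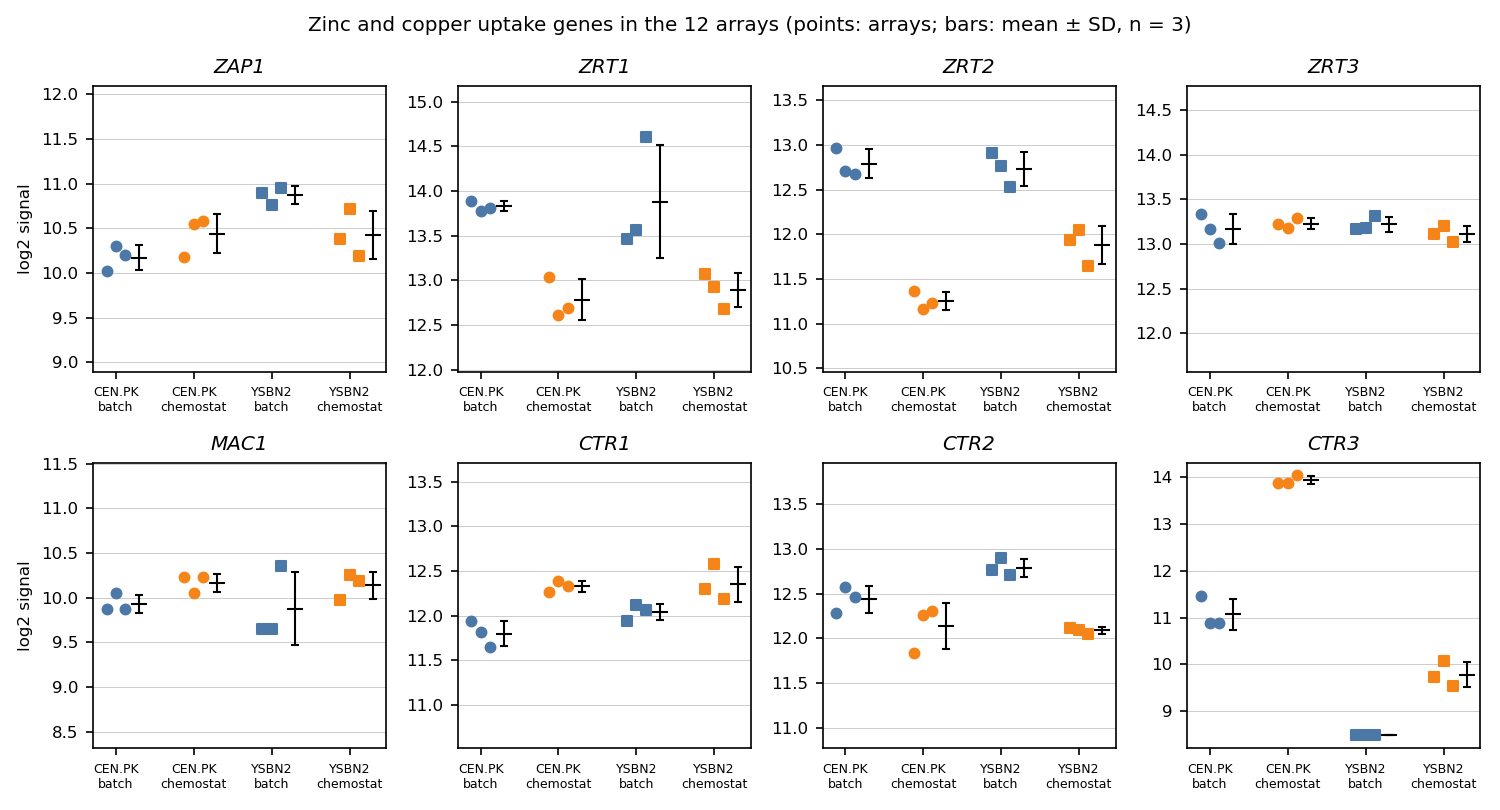
The log2 signal of each of the 8 genes is plotted for every array (points, circles for CEN.PK 113-7D and squares for YSBN2, blue for batch and orange for chemostat) with the mean and SD of the 3 replicates (black bars). CTR3 separates all 4 groups, from 8.48 in YSBN2 batch to 14.04 in CEN.PK 113-7D chemostat, while ZRT3 stays between 13.01 and 13.34 in all 12 arrays.

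Culture changed a large share of the transcriptome, and the counts of these genes are read against it. In CEN.PK 113-7D, 2 of the 8 genes were called higher in the chemostat and 2 lower, where 33.9% of all probe sets were called higher and 22.2% lower. In YSBN2, 2 of the 8 were called higher and 4 lower, against 30.6% and 21.9% of all probe sets. The median difference of the 8 genes was 0.15 in CEN.PK 113-7D and -0.27 in YSBN2, beside 0.09 and 0.06 over all probe sets. These shares hang on how the arrays are scaled. With every array set to a common median, the median over all probe sets moved from 0.09 to -0.19 in CEN.PK 113-7D and from 0.06 to -0.07 in YSBN2. Of the calls in CEN.PK 113-7D, 60.4% were higher in the chemostat as deposited, 40.4% with a common median and 37.8% after quantile normalization. In YSBN2 the share of calls that were higher was 58.3% as deposited, 48.5% with a common median and 44.7% after quantile normalization. With a common median 3595 of 5716 probe sets were called in CEN.PK 113-7D, 1452 of them higher, and 3041 in YSBN2, 1475 of them higher. After quantile normalization these were 3473 with 1313 higher, and 3202 with 1431 higher. Without the third YSBN2 batch array they were 3622 with 2140 higher, and 3116 with 1823 higher. Behaviour under scaling is given below for some of the small differences, and others move as well. Over the alternatives run, CEN.PK 113-7D differences of CUP1-1 ran from 0.22 to 0.67, of COT1 from 0.32 to 0.71 and of COX23 from 0.38 to 0.86. Those of BSD2 ran from 0.46 to 0.97 and of ADH3 from -0.67 to -0.27. The calls of these genes were kept.

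ZRT1, the high-affinity zinc transporter gene, was about 2-fold lower in the chemostat in both strains. In CEN.PK 113-7D its signal was 13.89, 13.78 and 13.81 in batch culture, against 13.04, 12.61 and 12.69 in the chemostat. In YSBN2 it was 13.46, 13.56 and 14.60 in batch culture, against 13.07, 12.92 and 12.68 in the chemostat. The 2 cultures did not overlap in either strain, and the third YSBN2 batch array held the highest value of all 12. ZRT1 fell by 1.05 ± 0.27 (SE, n = 3 per group, limma adjusted p = 0.0083) in CEN.PK 113-7D and by 0.99 ± 0.27 (limma adjusted p = 0.012) in YSBN2. Without the third YSBN2 batch array the difference in YSBN2 was -0.62 ± 0.15 (limma adjusted p = 0.0064). A fit of the 6 YSBN2 arrays alone lost the call (limma adjusted p = 0.067). The strains did not differ beyond error, with YSBN2 minus CEN.PK 113-7D at 0.05 ± 0.27 in batch (95% interval -0.56 to 0.65) and 0.11 ± 0.27 in the chemostat (-0.49 to 0.71).

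ZRT2, which encodes the lower-affinity zinc transporter, was lower in the chemostat in both strains, and lowest in CEN.PK 113-7D. Its signal in CEN.PK 113-7D was 12.97, 12.71 and 12.68 in batch culture, against 11.36, 11.16 and 11.23 in the chemostat. In YSBN2 it was 12.91, 12.76 and 12.53 in batch culture, against 11.94, 12.05 and 11.64 in the chemostat. The batch groups of the 2 strains overlapped, whereas every CEN.PK 113-7D chemostat array lay below every YSBN2 chemostat array, and both below all batch arrays. ZRT2 fell by 1.53 ± 0.14 (2.9-fold, limma adjusted p = 1.1e-05) in CEN.PK 113-7D and by 0.85 ± 0.14 (1.81-fold, limma adjusted p = 0.00061) in YSBN2, calls that held under every alternative run at the 0.05 threshold. In the chemostat ZRT2 was 0.63 ± 0.14 higher in YSBN2 (limma adjusted p = 0.0085). The culture difference itself differed between strains by 0.68 ± 0.19 (limma adjusted p = 0.043), a call lost under 11 of 21 alternatives, 10 of them the removal of 1 array (range of adjusted p 0.016 to 0.11).

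ZRT3, the gene for vacuolar zinc release, varied least. Its 12 values lay between 13.01 and 13.34, and its 4 group means spanned 0.12, where the median span over all probe sets was 0.96. All neighbouring groups overlapped. ZRT3 differed by 0.06 ± 0.09 between cultures in CEN.PK 113-7D (95% interval -0.15 to 0.26) and by -0.11 ± 0.09 in YSBN2 (-0.31 to 0.10), and no contrast of it was called. With a common array median the first of these became -0.23 (limma adjusted p = 0.078).

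ZAP1, the gene of the zinc-responsive activator, ordered the groups differently from ZRT1 and ZRT2. Its signal in CEN.PK 113-7D was 10.02, 10.30 and 10.20 in batch culture, against 10.18, 10.55 and 10.58 in the chemostat. In YSBN2 it was 10.90, 10.76 and 10.95 in batch culture, against 10.38, 10.72 and 10.19 in the chemostat. The YSBN2 batch arrays were the highest, without overlap with any other group, and the other 3 groups overlapped with their neighbours. ZAP1 was 0.70 ± 0.16 higher in YSBN2 than in CEN.PK 113-7D in batch (1.62-fold, limma adjusted p = 0.009), and the strains differed by 0.00 ± 0.16 in the chemostat (95% interval -0.35 to 0.35). Within YSBN2 it fell by 0.44 ± 0.16 in the chemostat (limma adjusted p = 0.039). That call was lost under 10 of 23 alternatives, among them the fit without the third YSBN2 batch array (-0.40, limma adjusted p = 0.09). In CEN.PK 113-7D the difference was 0.26 ± 0.16 (limma adjusted p = 0.18). A block on the replicate number, in the 6 CEN.PK 113-7D arrays, made it a call (0.26, limma adjusted p = 0.041). When all arrays were set to 1 median it was -0.02. The strain difference of the culture effect was -0.70 ± 0.22 and was not called (limma adjusted p = 0.063).

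The other genes known to be activated by Zap1 were called in both directions. Of 15 listed and measured, 4 were higher, 5 lower and 6 not called in the CEN.PK 113-7D chemostat, where 33.9% and 22.2% of all probe sets were called. In YSBN2 3 were higher, 7 lower and 5 not called, beside 30.6% and 21.9%. The median difference of the 15 was 0 and -0.09. In CEN.PK 113-7D 2 were higher and 9 lower with a common array median, and 3 and 6 after quantile normalization. Under these scalings 3595 and 3473 of all 5716 probe sets were called, 1452 and 1313 of them higher. FET4, a low-affinity transporter of iron, zinc and copper, fell furthest, from 11.32, 11.00 and 10.74 in CEN.PK 113-7D batch to 2.34, 2.18 and 2.28 in the chemostat, which is at the floor. In YSBN2 it went from 12.71, 12.54 and 13.14 to 4.93, 7.68 and 4.88. The differences of FET4 were -8.75 ± 0.63 and -6.97 ± 0.63 (limma adjusted p = 2.6e-06 and 1.5e-05), values whose size is set in part by the floor. ZRC1, which loads zinc into the vacuole, fell by 0.92 ± 0.10 in CEN.PK 113-7D and by 0.33 ± 0.10 in YSBN2 (-0.20 ± 0.07 without the third YSBN2 batch array). The YSBN2 call of ZRC1 was lost under 5 of 23 alternatives (limma adjusted p up to 0.13). ADH4, an alcohol dehydrogenase induced by zinc shortage, fell by 1.06 ± 0.13 and 1.12 ± 0.13. MCD4, an enzyme of membrane anchor synthesis, fell by 0.75 ± 0.12 and 0.68 ± 0.12.

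Against these, ZPS1, a cell wall protein gene induced by low zinc, was 1.59 ± 0.23 higher in the CEN.PK 113-7D chemostat and 1.79 ± 0.23 higher in the YSBN2 chemostat (limma adjusted p = 0.00027 and 0.00015). IZH4, a membrane protein gene tied to zinc homeostasis, read 2.05, 2.03 and 2.25 in CEN.PK 113-7D batch and 9.98, 9.63 and 10.43 in the chemostat. The YSBN2 values were 3.49, 2.27 and 8.59 in batch culture, against 10.86, 10.81 and 10.46. Its batch level was thus near the floor in 5 of 6 arrays and high in the third YSBN2 batch array, and the difference in YSBN2 was 5.93 ± 1.28 with that array and 7.83 ± 0.35 without it. IZH1, a relative of IZH4, was likewise 10.97 and 10.97 in 2 YSBN2 batch arrays and 13.68 in the third. With that array IZH1 was not called in either strain. Its difference was 1.54 ± 0.60 in CEN.PK 113-7D (limma adjusted p = 0.052) and 0.73 ± 0.60 in YSBN2 (limma adjusted p = 0.34). Without that array IZH1 was called higher in both, by 1.54 ± 0.11 and 1.63 ± 0.12 (limma adjusted p = 3.5e-06 and 7.4e-06). The CEN.PK 113-7D arrays read 11.45, 11.29 and 11.51 in batch culture, against 13.08, 12.75 and 13.03. In that strain only the error changed, since the groups share 1 estimate of the spread. Without that array 5 of the 15 genes were higher and 5 lower in CEN.PK 113-7D, and 5 higher and 7 lower in YSBN2. Over all 5716 probe sets that fit gave 3622 calls with 2140 higher, and 3116 with 1823 higher. In the same array ZRT1 and MAC1 stood 1.09 and 0.71 above the mean of the other 2 arrays. VEL1 and YOR387C, which respond strongly to zinc shortage, lay at the floor in every array, with group means of 2.00 to 2.02.

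ADH1 and ADH3, the zinc-containing alcohol dehydrogenases whose genes Zap1 represses, were both lower in the chemostat in both strains. ADH1 fell by 0.52 ± 0.07 in CEN.PK 113-7D and by 0.77 ± 0.07 in YSBN2, and ADH3 by 0.38 ± 0.06 and 0.40 ± 0.06. The batch means of ADH1, 15.82 and 15.89, lay near the highest signal of all, 16.2. Whether the top of the range limits the ADH1 differences was not tested. Of 5 genes for zinc transport into the vacuole or the secretory pathway (ZRC1 and ZRG17 also count among the 15), 3 were higher and 1 lower in CEN.PK 113-7D, and 2 higher and 2 lower in YSBN2, beside 33.9% and 22.2%, and 30.6% and 21.9%, of all probe sets. The CEN.PK 113-7D count turned to 1 higher and 2 lower with a common array median, and to 1 and 1 after quantile normalization, while the YSBN2 count was 2 and 2 under both. Under these scalings 40.4% and 37.8% of all calls were higher in CEN.PK 113-7D, and 48.5% and 44.7% in YSBN2. COT1, which moves zinc and cobalt into the vacuole, went opposite ways. CEN.PK 113-7D gave 12.10, 12.08 and 12.02 in batch culture and 12.46, 12.74 and 12.80 in the chemostat. YSBN2 gave 12.79, 12.72 and 12.53 in batch culture, against 12.16, 12.23 and 12.19. The cultures did not overlap in either strain, with a difference of 0.61 ± 0.10 in CEN.PK 113-7D and -0.49 ± 0.10 in YSBN2, and the strain difference of the culture effect was -1.09 ± 0.14 (limma adjusted p = 0.00093).

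CTR3, a high-affinity copper transporter gene, had the widest range of the 8. Its signal in CEN.PK 113-7D was 11.46, 10.88 and 10.88 in batch culture, against 13.89, 13.89 and 14.04 in the chemostat. In YSBN2 it was 8.48, 8.49 and 8.48 in batch culture, against 9.73, 10.06 and 9.54 in the chemostat. The 4 groups stood in the order YSBN2 batch, YSBN2 chemostat, CEN.PK 113-7D batch and CEN.PK 113-7D chemostat with no overlap between neighbours, so that the highest YSBN2 array lay below the lowest CEN.PK 113-7D array. CTR3 was 2.87 ± 0.17 higher in the chemostat in CEN.PK 113-7D (7.3-fold, limma adjusted p = 6.9e-07) and 1.29 ± 0.17 higher in YSBN2 (2.45-fold, limma adjusted p = 0.00017). These calls held in all 23 alternatives run for each, with differences from 2.58 to 3.06 and from 0.79 to 1.41. CTR3's group means spanned 5.46, the widest span among the 8 genes, ahead of 1.53 for ZRT2.

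CTR1, the other high-affinity copper transporter gene, was higher in the chemostat by a much smaller amount. The CEN.PK 113-7D signals were 11.94, 11.82 and 11.65 in batch culture against 12.27, 12.39 and 12.33 in the chemostat. The YSBN2 signals were 11.94, 12.12 and 12.06 in batch culture against 12.30, 12.58 and 12.19. The cultures did not overlap in either strain. CTR1 was 0.53 ± 0.11 higher in CEN.PK 113-7D (1.44-fold, limma adjusted p = 0.003), but with a common array median the difference was 0.24 (limma adjusted p = 0.099). In YSBN2 it was 0.31 ± 0.11 higher (limma adjusted p = 0.04), a call lost under 12 of 23 alternatives (0.18 with a common array median, limma adjusted p = 0.21; 0.32 without the third YSBN2 batch array, limma adjusted p = 0.062). Between strains CTR1 differed by 0.24 ± 0.11 in batch (95% interval -0.02 to 0.49) and 0.02 ± 0.11 in the chemostat (-0.23 to 0.28), and neither was called.

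CTR2, the gene for vacuolar copper release, was lower in the YSBN2 chemostat. Batch cultures of CEN.PK 113-7D gave 12.29, 12.58 and 12.46, and its chemostats 11.84, 12.26 and 12.31. Batch cultures of YSBN2 gave 12.77, 12.90 and 12.71, and its chemostats 12.12, 12.09 and 12.05. The cultures were apart in YSBN2 and overlapped in CEN.PK 113-7D. CTR2 fell by 0.71 ± 0.13 in YSBN2 (1.63-fold, limma adjusted p = 0.0013). In CEN.PK 113-7D the difference was -0.30 ± 0.13 and was not called (limma adjusted p = 0.068). It became a call with a block on the replicate number in the 6 CEN.PK 113-7D arrays (-0.30, limma adjusted p = 0.046), and also when all arrays were set to 1 median (-0.59, limma adjusted p = 0.0039). The difference between strains in the culture effect was -0.40 ± 0.18 (limma adjusted p = 0.18).

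MAC1, the copper-responsive activator, was not called in any contrast. CEN.PK 113-7D gave 9.88, 10.05 and 9.87 in batch culture and 10.23, 10.05 and 10.23 in the chemostat. YSBN2 gave 9.65, 9.65 and 10.36 in batch culture and 9.97, 10.26 and 10.19 in the chemostat. The third YSBN2 batch array gave the highest MAC1 value of all 12. The difference between cultures was 0.24 ± 0.18 in CEN.PK 113-7D (limma adjusted p = 0.29) and 0.26 ± 0.18 in YSBN2 (limma adjusted p = 0.26). Without that array MAC1 was called higher in the chemostat in both strains, by 0.24 ± 0.09 (limma adjusted p = 0.049) and 0.49 ± 0.10 (limma adjusted p = 0.0035). In CEN.PK 113-7D only the error changed. Under quantile normalization of all 12 arrays the MAC1 difference was -0.33 and -0.05, so no direction is given for MAC1.

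**Figure D2:**
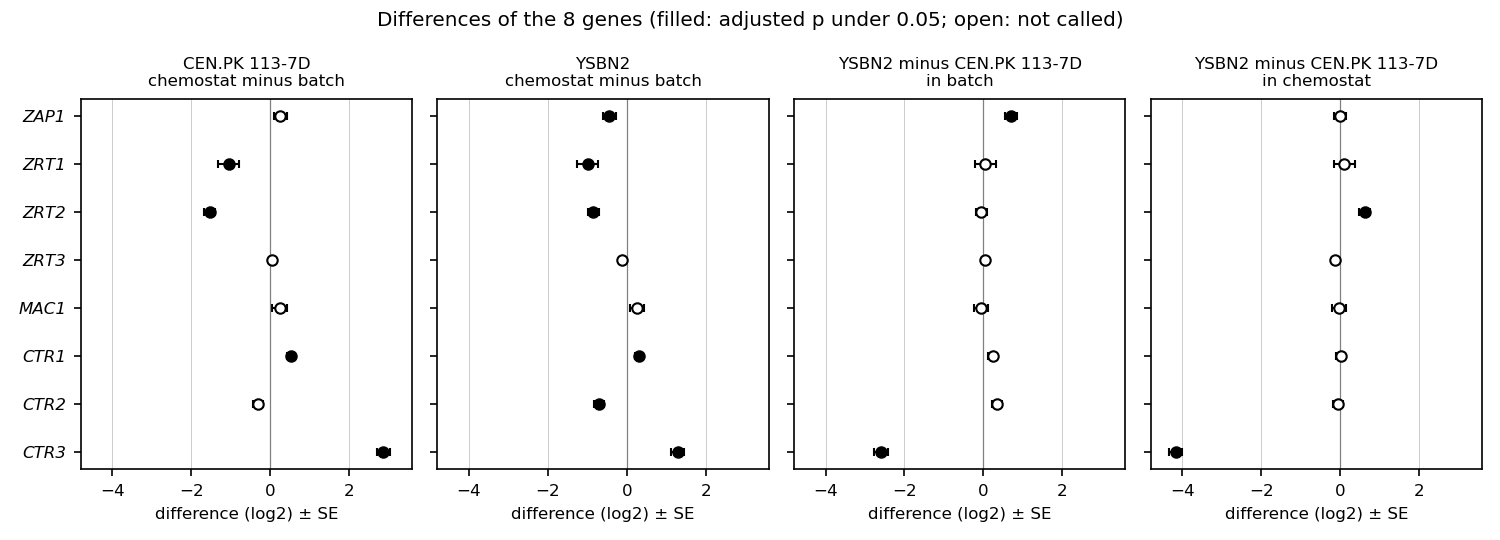
Each panel gives, for 1 comparison, the difference of each of the 8 genes in log2 units with its standard error from the limma fit of 12 arrays. Filled points have an adjusted p under 0.05. CTR3 stands at 2.87 and 1.29 in the comparisons of cultures and at -2.59 and -4.17 in the comparisons of strains, where only 1 other gene is filled in each (ZAP1 in batch, ZRT2 in the chemostat).

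Among 4 other genes known to be activated by Mac1, 2 were higher and 1 lower in the CEN.PK 113-7D chemostat, where 33.9% and 22.2% of all probe sets were called. In YSBN2 3 were higher and 1 lower, beside 30.6% and 21.9%. Their median difference was 0.88 in CEN.PK 113-7D and 1.39 in YSBN2, beside 0.09 and 0.06 over all probe sets. FRE1, the main surface reductase of copper and iron, differed by 0.22 ± 0.19 in CEN.PK 113-7D (limma adjusted p = 0.37) and was 0.88 ± 0.19 higher in YSBN2 (limma adjusted p = 0.0037). FRE7, a reductase gene induced by copper shortage, read 2.25, 3.54 and 3.07 in CEN.PK 113-7D batch and 7.20, 7.12 and 7.76 in the chemostat. The YSBN2 values were 2.14, 2.32 and 3.54 in batch culture, against 5.08, 7.20 and 7.07. FRE7 was thus near the floor in all batch arrays and clear of it in the chemostat, with a difference of 4.41 ± 0.60 in CEN.PK 113-7D and 3.78 ± 0.60 in YSBN2. The second call was lost when values under 6 were raised to 6 (0.76, limma adjusted p = 0.057).

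REE1, whose product acts on enolase regulation, was higher in the chemostat by 1.54 ± 0.10 in CEN.PK 113-7D and 1.91 ± 0.10 in YSBN2 (limma adjusted p = 1.5e-06 and 4.6e-07). IRC7, a gene for a cysteine-handling lyase, went the other way. Its CEN.PK 113-7D values were 9.59, 10.16 and 9.94 in batch culture, against 5.32, 5.84 and 6.51 in the chemostat. Its YSBN2 values were 11.70, 11.85 and 11.88, against 6.54, 8.69 and 7.24. The differences of IRC7 were -4.01 ± 0.49 and -4.32 ± 0.49 (limma adjusted p = 8.9e-05 and 6.4e-05), and IRC7 was higher in YSBN2 than in CEN.PK 113-7D in both cultures, by 1.91 ± 0.49 in batch and 1.60 ± 0.49 in the chemostat. The chemostat call of IRC7 was lost under 11 of 22 alternatives (limma adjusted p up to 0.11). Without the second YSBN2 chemostat array the IRC7 difference was 1.00 (limma adjusted p = 0.074), and the batch call was lost without the first CEN.PK 113-7D batch array (1.76, limma adjusted p = 0.055). None of these 4 genes was called lower in YSBN2 than in CEN.PK 113-7D in either culture. Of all probe sets 10.5% were called lower in batch and 15.3% in the chemostat, shares at which a list of 4 can hold none.

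Of 11 genes for copper chaperones and copper delivery, 4 were higher and 1 lower in the CEN.PK 113-7D chemostat, and 2 higher and 1 lower in YSBN2, beside 33.9% and 22.2%, and 30.6% and 21.9%, of all probe sets. With a common array median 3 were higher and 2 lower in CEN.PK 113-7D and 2 and 3 in YSBN2, and after quantile normalization 3 and 3, and 2 and 4. Of all calls 40.4% and 48.5% were higher in the 2 strains with the common median, and 37.8% and 44.7% after quantile normalization. CCS1, the chaperone of copper-zinc superoxide dismutase, fell in both strains, by 0.89 ± 0.11 and 0.70 ± 0.11. COX23, a mitochondrial protein needed for cytochrome oxidase assembly, was higher in the chemostat in both, by 0.79 ± 0.17 and 1.77 ± 0.17. PIC2, a mitochondrial carrier of phosphate and copper, read 10.33, 10.59 and 10.69 in CEN.PK 113-7D batch and between 11.66 and 12.35 in the other 9 arrays. PIC2 was 1.63 ± 0.16 higher in the CEN.PK 113-7D chemostat (limma adjusted p = 2e-05), while its difference in YSBN2 was -0.25 ± 0.16 (limma adjusted p = 0.22). Without the third YSBN2 batch array 4 of the 11 genes were higher and 3 lower in YSBN2, where 3116 of all 5716 probe sets were called, 1823 of them higher.

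The copper detoxification list holds metallothionein genes, their activator gene CUP2 and SOD1, and was in part higher in the chemostat. Of 4 measured, 3 were called higher in CEN.PK 113-7D and 2 in YSBN2, and none was called lower, where 33.9% of all probe sets in CEN.PK 113-7D and 30.6% in YSBN2 were called higher. The YSBN2 count was 3 higher without the third YSBN2 batch array, and 2 higher and 1 lower with a common array median. Over all 5716 probe sets these fits gave 3116 YSBN2 calls with 1823 higher, and 3041 with 1475 higher. CRS5, a metallothionein gene, read 10.70, 10.39 and 10.67 in CEN.PK 113-7D batch and 13.00, 12.91 and 13.04 in the chemostat. The YSBN2 values were 11.37, 11.01 and 10.78 in batch culture, against 12.46, 12.54 and 12.25. The cultures did not overlap in either strain, with differences of 2.40 ± 0.15 and 1.37 ± 0.15 (limma adjusted p = 1.1e-06 and 5.8e-05). CUP2, the activator of the metallothionein genes, was 1.38 ± 0.34 and 1.23 ± 0.34 higher. Its YSBN2 call was lost under 3 of 22 alternatives (limma adjusted p up to 0.12). CUP1-1, whose probe set also reads its near-identical copies, was 0.51 ± 0.06 higher in CEN.PK 113-7D, and its difference in YSBN2 was 0.15 ± 0.06 (limma adjusted p = 0.057), or 0.18 ± 0.06 and called without the third YSBN2 batch array (limma adjusted p = 0.037). The CUP1-1 signals, 15.41 to 16.02, lay near the highest signal of all, 16.2. Whether the top of the range limits its differences was not tested. SOD1, the copper-zinc superoxide dismutase gene, differed by 0.05 ± 0.08 and -0.14 ± 0.08 and was not called. Members of both the copper-shortage list and the copper-excess list were thus higher in the chemostat of each strain.

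**Figure D3:**
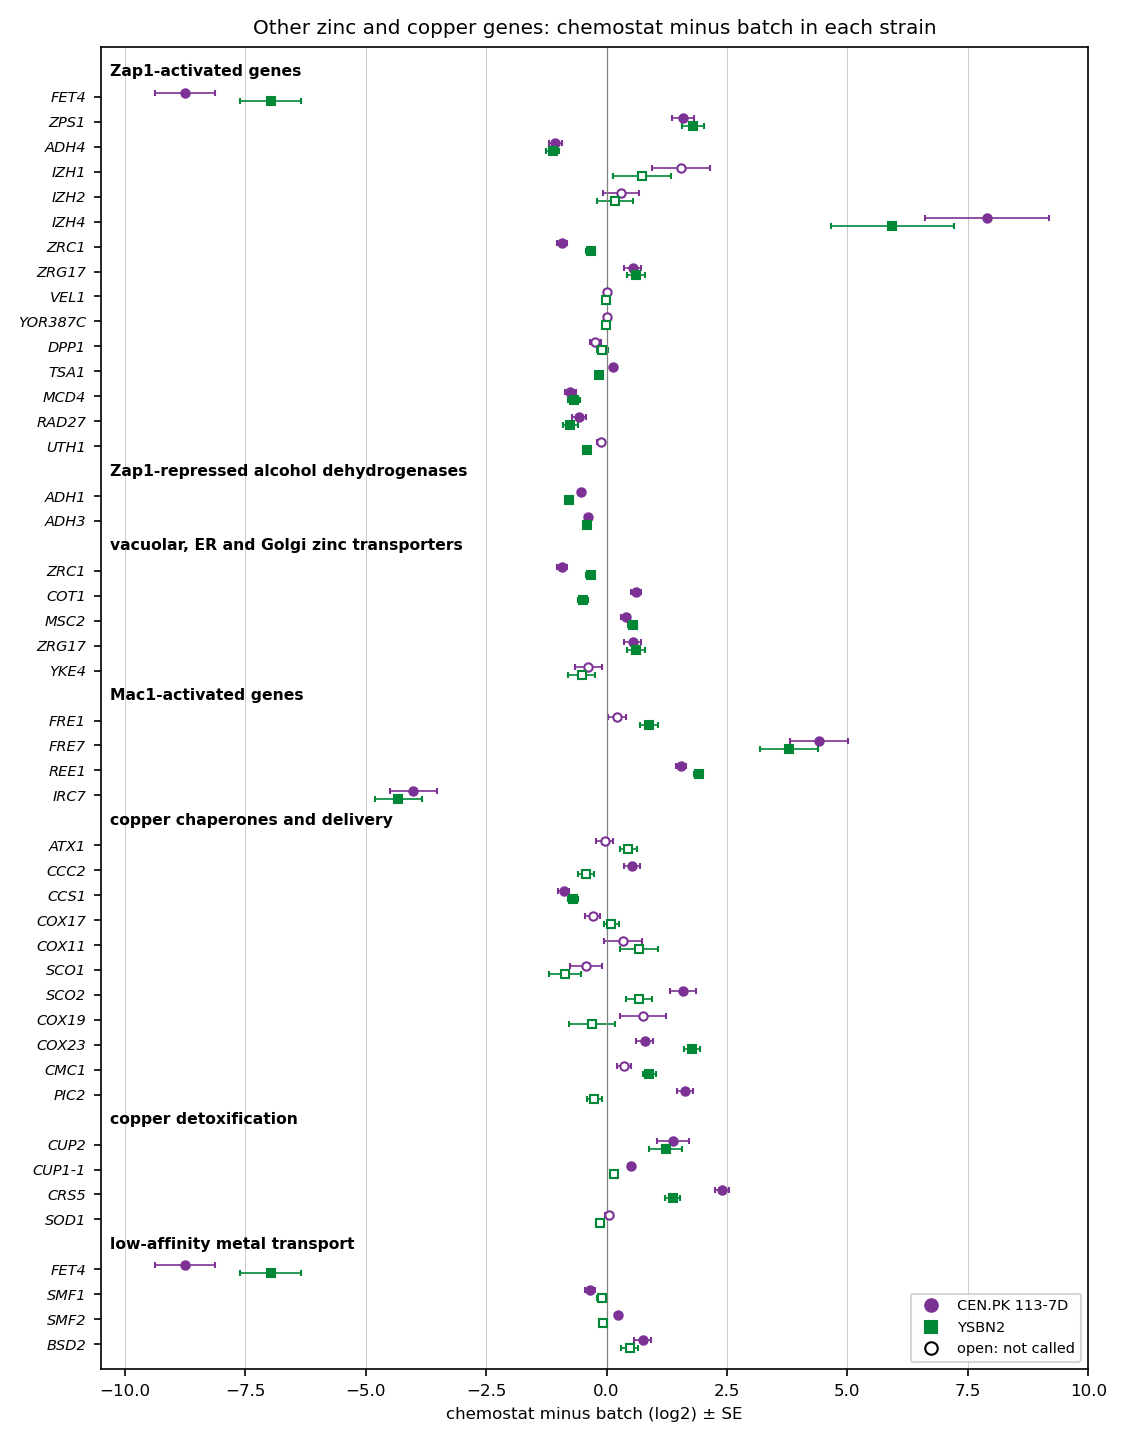
The chemostat minus batch difference in log2 units is drawn for each measured gene of the zinc and copper lists, with its standard error, in CEN.PK 113-7D (purple circles) and YSBN2 (green squares). Filled points have an adjusted p under 0.05, and ZRC1, ZRG17 and FET4 appear in more than 1 list. FET4 lies at -8.75 and -6.97 and IZH4 at 7.90 and 5.93, each with 1 culture near the floor, while COT1 has its points on either side of 0.

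Among genes for metal uptake of low selectivity, FET4 fell as described. SMF1, a manganese transporter gene that also carries other metals, fell by 0.34 ± 0.10 in CEN.PK 113-7D and differed by -0.09 ± 0.10 in YSBN2. The SMF1 call was lost without the first CEN.PK 113-7D batch array (-0.26, limma adjusted p = 0.068), or without the second or the third chemostat array of that strain (limma adjusted p = 0.064 and 0.061). SMF2, its paralogue, was 0.24 ± 0.06 higher and differed by -0.08 ± 0.06, and BSD2, whose product sends such transporters to the vacuole for breakdown, was 0.75 ± 0.18 higher and differed by 0.48 ± 0.18 (limma adjusted p = 0.051). In CEN.PK 113-7D the SMF2 call was lost with a block on the replicate number in 6 arrays (limma adjusted p = 0.063), and the difference was -0.04 with a common array median.

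In each culture 2 of the 8 genes differed between strains, a share near that of all probe sets. In batch 1 gene was called higher in YSBN2 (ZAP1) and 1 lower (CTR3), where 18.5% of all probe sets were called higher and 10.5% lower. Of all calls in batch 63.8% were higher in YSBN2, which became 50% with a common array median and 47.6% after quantile normalization. In the chemostat 1 gene was called higher (ZRT2) and 1 lower (CTR3), against 12.9% and 15.3% of all probe sets. The median difference of the 8 genes was 0.05 in batch and -0.02 in the chemostat, beside 0.02 and -0.01 over all probe sets.

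CTR3 accounted for the large values. It was 2.59 ± 0.17 lower in YSBN2 in batch (6.01-fold, limma adjusted p = 4.3e-06) and 4.17 ± 0.17 lower in the chemostat (17.9-fold, limma adjusted p = 2.5e-07). By size these differences ranked at place 200 and place 58 of 5716 probe sets, and among probe sets lower in YSBN2 they ranked at place 51 and place 31. Both calls held in all 23 alternatives, with differences from -2.69 to -2.40 and from -4.38 to -4.05. The 2 comparisons share no arrays with each other, but each shares its arrays with the comparisons of cultures.

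**Figure D4:**
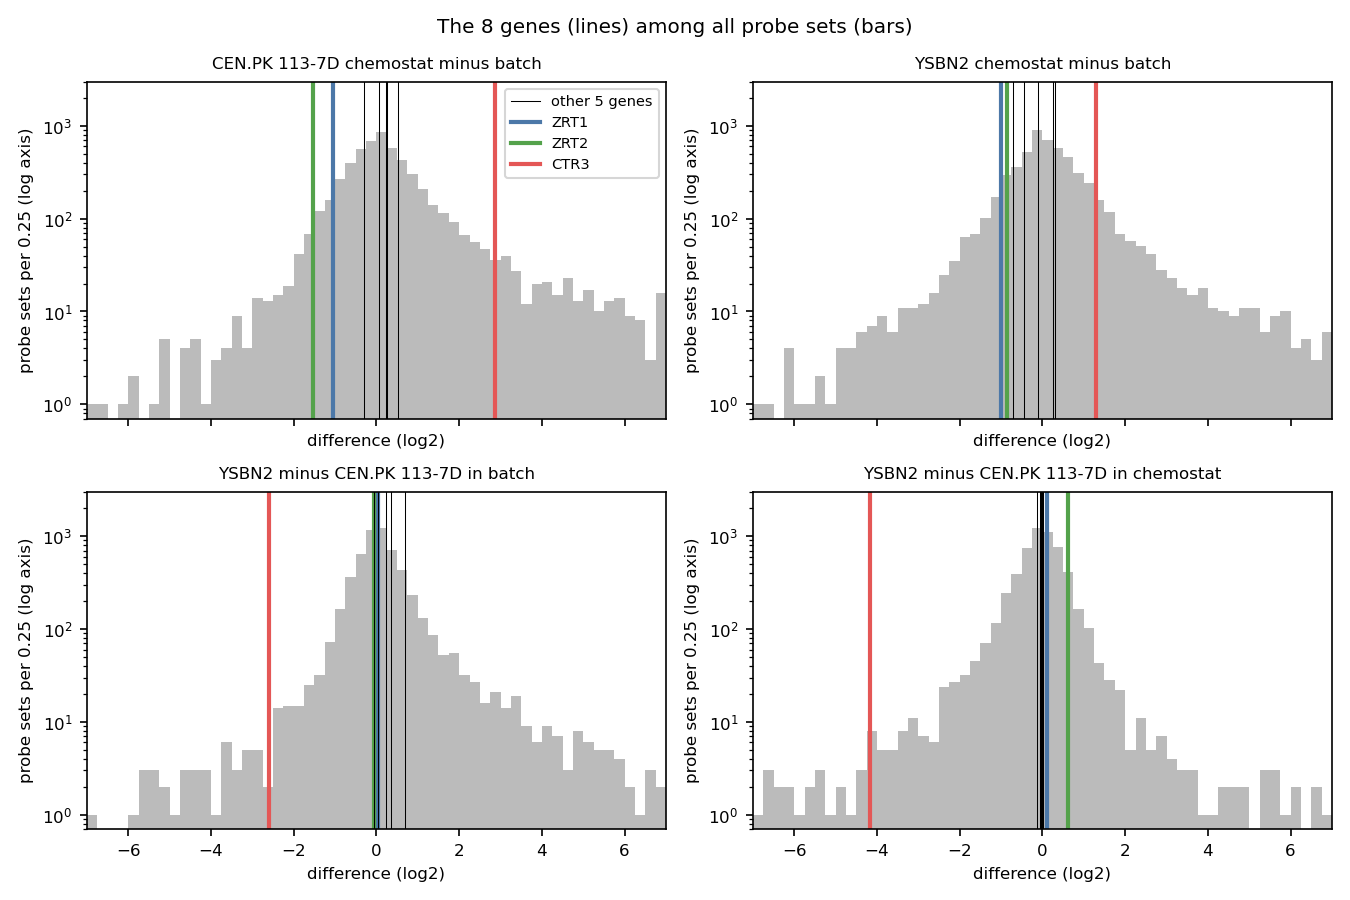
The bars count probe sets by their difference in log2 units, in bins on a log axis, for each of the 4 comparisons of 2 groups, and the lines mark the 8 genes. The horizontal axis leaves out the most extreme probe sets. In the comparisons of strains CTR3 lies far in the lower tail, at place 51 and place 31 from the bottom, while the other 7 genes lie in the central mass.

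The culture effect itself differed between strains for 2 of the 8 genes, 1 higher in YSBN2 (ZRT2) and 1 lower (CTR3), where 4.34% of all probe sets were called higher and 11.1% lower. Of all these calls 28.1% were higher, which became 45.9% with a common array median and 50.7% after quantile normalization. For CTR3 the effect in YSBN2 minus that in CEN.PK 113-7D was -1.58 ± 0.24 (limma adjusted p = 0.0024, range over 21 alternatives 0.00012 to 0.0087). The rise in YSBN2 was therefore smaller on the log2 scale as well as from a lower starting level. For CTR1 the same quantity was -0.21 ± 0.16 (95% interval -0.57 to 0.14), for ZRT1 0.06 ± 0.38 (-0.79 to 0.92), for ZRT3 -0.16 ± 0.13 (-0.46 to 0.13) and for MAC1 0.02 ± 0.25 (-0.55 to 0.59). None of these 4 was called, and the intervals of ZRT1 and MAC1 are wide.

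Over the 12 arrays, which fall into 4 groups, ZRT1 and ZRT2 ran together with a Pearson correlation of 0.80. ZAP1 correlated with ZRT1 at 0.16 and with ZRT2 at 0.11. CTR1 and CTR3 correlated at 0.28, MAC1 with CTR1 at 0.48 and MAC1 with CTR3 at 0.35. These correlations describe the arrays and mix strain and culture.

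Genes with the most similar patterns were sought by Pearson correlation over the 12 arrays among 2580 genes whose group means spanned at least 1. For CTR3 they were SNZ1, a gene of vitamin B6 synthesis (0.971), HMG1, a reductase of sterol synthesis (0.967), and UMP1, a proteasome assembly factor (0.96). HMG1 stood at 13.65 and 14.58 in CEN.PK 113-7D batch and chemostat and at 11.94 and 13.05 in YSBN2. For ZRT1 they were DRS1 (0.965), PRP43 (0.961) and RNT1 (0.959), which encode 2 RNA helicases and an RNase III, and for ZRT2 POR2, a mitochondrial porin (0.988), FEX1, a fluoride exporter (0.982), and EPT1, a phospholipid synthesis enzyme (0.974). DRS1 went from 12.52 to 11.19 in CEN.PK 113-7D and from 12.42 to 11.43 in YSBN2. POR2 went from 12.07 to 9.88 and from 11.89 to 10.70. The FEX1 probe set may also read its near-identical copy.

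For CTR1 the most similar were YHR131C (0.95), VPS45, a vacuolar sorting gene (0.943), and YOR097C (0.933). For CTR2 they were RKM5, a methyltransferase gene (0.969), SPT5, a transcription elongation factor (0.943), and HIS2 of histidine synthesis (0.935). For ZAP1 they were PDR15, a drug-resistance transporter (0.87), PCL1, a cyclin (0.861), and RED1, a meiotic chromosome gene (0.854). The correlations for ZAP1 were the lowest of the 6 genes with a called contrast, and ZRT3 and MAC1, which had none, are not listed.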

How the data were processed

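Total RNA of 12 yeast cultures was labelled with biotin and hybridised to Affymetrix arrays, per the labels. R 2.6, affy and RMA are named in the submitters' processing notes, without order or settings. Values were deposited as 1 table of 5716 probe sets by 12 arrays and were read as log2 signals from their range, 1.69 to 16.2, since the labels do not state the log base of the deposited values. The 3 arrays per group limit the precision. Gene symbols come from GEO's platform annotation, updated through the RefSeq table of assembly R64: 5498 probe sets had 1 gene and 218 none. No coordinates were used.

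All probe sets were fitted with limma 3.58.1 in R 4.3.3, with 1 mean per group, 5 contrasts and eBayes. Benjamini-Hochberg adjustment ran over all 5716 probe sets, with calls made at an adjusted p under 0.05, with no filter on low values. Errors are SE from this fit. The procedure was tried on simulated data with independent noise. The simulation held no deviating array and no effect shared by a replicate number, so it does not cover these features. The 8 genes, the pathway lists and the rule for named genes (all 8, any list gene, and for each gene with a called contrast the 3 most correlated genes) were chosen with earlier results of these data known.

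Replicate numbers come from the labels, which do not say that a number marks a shared batch. Same-numbered CEN.PK 113-7D arrays deviated together (correlations 0.28 to 0.50 over probe sets), so a block on the number was fitted there. In the cultures of YSBN2 the correlations ran from -0.17 to 0.09. Between strains they ran from 0 to 0.16 in batch and from -0.1 to 0.6 in the chemostat. The arrays closest to their own number were 5 of 6 in the cultures of CEN.PK 113-7D and 4 of 6 in batch. In each of the others they were 2 of 6. The numbers were not taken as pairs in the main fit. Alternatives were other scalings, a floor, a dim-probe filter, trend and robust settings, array weights, the block, fits of 6 arrays, a stricter threshold and leaving out each array.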

Additional observations from a re-analysis of the deposited data

Results flagged for a closer look

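The effect of the chemostat differed between strains, by a test of the difference itself (the effect in YSBN2 minus that in CEN.PK 113-7D, limma over all probe sets), for 2 of the 8 genes and 9 genes of the lists, where 4.34% of all probe sets were called higher and 11.1% lower. CTR3 differed by -1.58 (limma adjusted p = 0.0024), with a rise of 2.87 in CEN.PK 113-7D and 1.29 in YSBN2. ZRT2 differed by 0.68 (limma adjusted p = 0.043), with a fall in both strains, and by 0.58 without the third YSBN2 batch array (limma adjusted p = 0.051). Among copper genes, PIC2 differed by -1.88, CRS5 by -1.03, CCC2, the copper pump of the secretory pathway, by -0.96 and CUP1-1 by -0.35, and COX23 differed by 0.97. Among zinc and other metal genes, COT1 differed by -1.09, SMF2 by -0.32 and TSA1, a peroxiredoxin, by -0.30, and ZRC1 differed by 0.60. COT1 was called in opposite directions in the 2 strains, and its call here and those of PIC2 and CTR3 held in all 21 alternatives run. The calls of the others were lost under some of the 21 alternatives: SMF2 under 16, ZRT2 under 11, TSA1 under 10, COX23 under 8, CUP1-1 under 7, ZRC1 under 5, CCC2 under 4 and CRS5 under 1. TSA1 was at 0.14 in CEN.PK 113-7D, a call lost or turned under 15 of 23 alternatives, and at -0.16 in YSBN2, a call lost under 9 of 23. The causes of these differences were not tested.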

How the results depend on the processing

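For the 40 differences of the 8 genes, 904 alternative values were computed: 798 kept direction and side of the threshold, 38 lost the call, 21 gained it and 47 changed sign, always between values that were not called. The causes were not tested. CTR3 kept its calls in all 5 contrasts under every alternative run. In the YSBN2 comparison of cultures 6 genes were called, and 3 with the 6 arrays alone, with the replicate block in those arrays, or at adjusted p under 0.01; leaving out 1 array gave 4 to 6. In the batch comparison of strains 2 genes became 5 with array weights and 1 with the replicate block in 6 arrays. For the strain difference of the culture effect 2 became 4 with array weights and 1 at adjusted p under 0.01, and 1 to 3 when 1 array was left out.

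Sign changes in the CEN.PK 113-7D comparison of cultures: with a common array median ZAP1 -0.02, ZRT3 -0.23, MAC1 -0.05, TSA1 -0.14 and SMF2 -0.04; after quantile normalization ZAP1 -0.21, ZRT3 -0.07 and MAC1 -0.33; after cyclic loess MAC1 -0.08. In YSBN2, MAC1 was -0.05 after quantile normalization. Between strains in batch, ZRT1 was -0.05 and ZRT3 -0.05 with a common median, and ZRT1 -0.24 and ZRT2 0.09 with array weights. In the chemostat, ZAP1 was 0.05, MAC1 0.02 and CTR2 0 with a common median, ZAP1 0.08, MAC1 0.09 and CTR2 0 after quantile normalization, and CTR1 -0.01 with array weights. Leaving out 1 array changed the sign of some values near 0. In the CEN.PK 113-7D comparison of cultures ZRT3 ran from -0.03 to 0.14. In batch they ran from -0.31 to 0.26 for ZRT1, -0.15 to 0.05 for ZRT2, -0.04 to 0.13 for ZRT3 and -0.28 to 0.07 for MAC1. In the chemostat they ran from -0.15 to 0.12 for ZAP1, -0.09 to 0.06 for MAC1, -0.09 to 0.11 for CTR1 and -0.20 to 0.04 for CTR2. For the strain difference of the culture effect they ran from -0.15 to 0.42 for ZRT1 and -0.10 to 0.26 for MAC1.

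Array weights raised the calls over all probe sets from 1661 to 3120 in batch, from 1613 to 2487 in the chemostat and from 882 to 1977 for the strain difference of the culture effect. In batch the 6 arrays alone gave 955 calls, and 507 with the replicate block. For the cultures of YSBN2 the 12 arrays gave 3004, the 6 arrays alone 2511 and those with the replicate block 1927. In the CEN.PK 113-7D comparison of cultures the replicate block in 6 arrays added calls for ZAP1 (0.26) and CTR2 (-0.30) and lost those of TSA1 (0.14, limma adjusted p = 0.085) and SMF2 (0.24, limma adjusted p = 0.063). No member had another probe set, so that alternative was not run. The number of arrays, 3 per group, and the floor near 2 limit what the signals can show.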
